A study of Danio rerio with 4 samples.

Results

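The miR-125 family was followed through all 7 rows that the deposited tables hold for it, out of 372 miRNA rows in all. The rows were taken by name, with no filter on their values, but the members were chosen with earlier results of these data known. They are dre-miR-125a, dre-miR-125b-5p and dre-miR-125c-5p, the guide rows (miR-125a is listed without an arm), and 4 rows of the opposite arm: dre-miR-125b-1-3p, dre-miR-125b-2-3p, dre-miR-125b-3-3p and dre-miR-125c-3p. The dre- prefix, which marks zebrafish, is left out from here on. Zebrafish embryos carrying Tg(sox10:eGFP,mRFP), in which the sox10 promoter drives both fluorescent proteins, were dissociated at 16 and 28 hpf and sorted by FACS into GFP-positive neural crest cells (NCC) and GFP-negative cells of the remaining embryo (non-NCC). Every group thus carried the same transgenes, and the differences named between the groups are fluorescence and stage. NCC stands here for whatever cells the sox10 promoter labeled. Small RNA from each of the 4 groups was sequenced as 1 library, so no difference below has a replicate check.

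A miRNA gene is transcribed as a hairpin from which both arms can be cut. The arm that is usually loaded into Argonaute, the guide, directs repression of matching mRNAs, and the opposite arm is mostly degraded. The opposite arm is called the passenger arm here, whatever its level in these libraries. miR-125 is the vertebrate relative of lin-4 of Caenorhabditis elegans, the founding member of the miRNAs, which times larval development there, and miR-125b is known in zebrafish embryos as a repressor of p53. The 3 hairpins of miR-125b share 1 guide row, so that only their 3p arms tell the genes apart. In the RefSeq gene table of the GRCz12tu assembly, which was used here for names and neighbors only, the family has 6 precursor genes: mir125a-1, mir125a-2, mir125b-1, mir125b-2, mir125b-3 and mir125c. Each of the 6 has a let-7 gene as a miRNA neighbor, 4 of them also have a miR-99 or miR-100 gene, and no protein-coding gene starts between the members of any of these clusters.

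The tables hold normalized counts, and the whole reads behind them were recovered by division (at 16 hpf 1 read was worth 7.72 in the NCC library against 0.130 in that of non-NCC, and at 28 hpf 11.4 against 0.0877). Summed over the miRNA rows, the NCC library at 16 hpf had 2340716 reads against 140132389 of non-NCC, and at 28 hpf 6502 against 1099312. The miR-430 family, which clears maternal mRNAs, took between 66.7% and 92.0% of the reads of a library. The study checked its sort by marker mRNAs, which were not analysed here, and the tables were read for miRNAs of other cell types. Summed over the lists set for them, normalized counts at 16 hpf were 633 in NCC and 605 in non-NCC for muscle, 3366 and 7393 for neurons, 8500 and 9365 for epidermis, and 347 and 725 for blood. At 28 hpf they were 22.8 in NCC and 68.7 in non-NCC for muscle, 274 and 394 for neurons, 787 and 145 for epidermis, and 0 and 10.7 for blood. Of the 5 muscle miRNAs, miR-133a-3p was higher in NCC at 16 hpf (64 NCC and 674 non-NCC reads, log2 ratio 2.5) and miR-206-3p was lower there (18 NCC and 2914 non-NCC reads, log2 ratio -1.44). miR-133b-3p and miR-133c-3p were at 0 in NCC at 16 hpf, against 618 and 445 reads in non-NCC. miR-1 was at 0 in NCC too, but with only 20 non-NCC reads, and at 28 hpf the muscle miRNAs without NCC reads had at most 18 non-NCC reads, too few to tell. The epidermis sums were mostly miR-205-5p, with 1071 of 1101 NCC reads at 16 hpf (log2 ratio -0.002). At 28 hpf it had 68 of 69 (log2 ratio 2.65). At 16 hpf the log2 ratios of miR-200a-3p, miR-200b-3p, miR-203a-3p and miR-203b-3p were -2.13, -2.34, -2.55 and -2.42. That of miR-200c-3p was 0.90, from 2 NCC reads. For blood at 16 hpf, miR-451 was higher in NCC (43 NCC and 304 non-NCC reads, log2 ratio 3.08). miR-144-5p was lower there (2 NCC and 5280 non-NCC reads, log2 ratio -5.47), and miR-144-3p had 0 and 15 reads. For neurons at 16 hpf, miR-9-5p took 427 of the 436 NCC reads (log2 ratio -1.11). There miR-124-3p was lower in NCC (6 NCC and 1859 non-NCC reads, log2 ratio -2.38). miR-128-3p had 3 and 150 reads (log2 ratio 0.25), and miR-137-3p had 0 and 52. At 28 hpf miR-9-5p had 21 NCC and 4452 non-NCC reads (log2 ratio -0.70), and miR-124-3p had 0 and 30. miR-128-3p was higher in NCC at 28 hpf, with 3 NCC and 7 non-NCC reads (adjusted p = 0.00102, exact binomial test). The part of these cell types in the results below was not tested, and in sorted pools more cells of a type and more miRNA per cell cannot be told apart.

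At 16 hpf, miR-125 rows were higher in NCC than in non-NCC wherever both libraries held reads, and the passenger arm of 1 gene, mir125b-2, stood well above the rest. All 7 rows had reads in non-NCC and 5 of them had reads in NCC, where 66.4% of all rows with non-NCC reads also had NCC reads. Counted as higher where reads were found in both populations and the values differed more than 2-fold, 4 of the 5 rows were higher in NCC and 0 in non-NCC. With a 4-fold difference required, 1 row, miR-125b-2-3p, was higher in NCC. Among all 225 rows that could be judged this way, 26.7% were higher in NCC and 25.3% in non-NCC. At an equal level 1.58 NCC reads of miR-125b-1-3p and 1.71 of miR-125b-2-3p would have been expected. With NCC reads required, these rows could not have counted as higher in non-NCC. The median log2 ratio of NCC over non-NCC was 1.34 over the 5 rows. Over the 225 it was 0, which the normalization sets in advance.

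**Figure D1:**
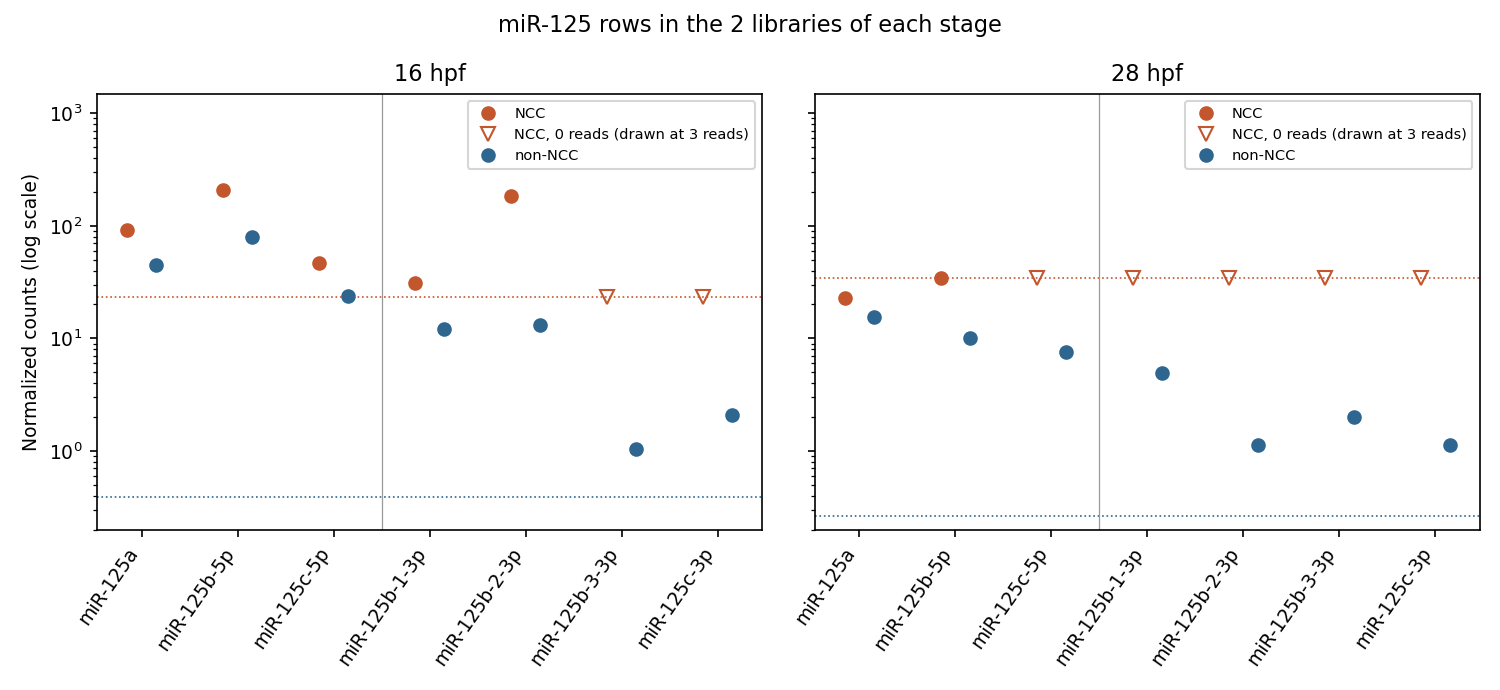
Normalized counts (log scale) of the 7 miR-125 rows in the NCC library and the non-NCC library of each stage, with guide rows left of the vertical line and 3p rows right of it. Dotted lines mark 3 reads in each library and open triangles mark rows without NCC reads, drawn at that line. At 16 hpf, miR-125b-2-3p reaches 185 normalized counts in NCC, close to the 208 of miR-125b-5p, and at 28 hpf all 5 rows without NCC reads have non-NCC values far below the NCC line.

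Among the guides, miR-125b-5p, the most abundant row of the family at this stage, had 208 normalized counts in NCC (27 reads) and 79.8 in non-NCC (616 reads). It was 2.61-fold higher in NCC, and its log2 ratio of 1.39 had a 95% Clopper-Pearson interval of 0.77 to 1.94. miR-125a had 92.6 normalized counts in NCC (12 reads) and 45.3 in non-NCC (350 reads), and its log2 ratio was 1.03 (from 0.06 to 1.85). miR-125c-5p had 46.3 normalized counts in NCC (6 reads) and 24.0 in non-NCC (185 reads), and its log2 ratio was 0.95 (from -0.51 to 2.10). As counted, the order of the levels, miR-125b-5p over miR-125a over miR-125c-5p, was the same in both libraries. The ratios of the 3 guides had overlapping intervals.

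In a two-sided exact binomial test on the recovered reads, adjusted over all 340 miRNAs with reads at this stage, miR-125b-5p passed (adjusted p = 5.87e-05, exact test). miR-125a (adjusted p = 0.0632, exact test) and miR-125c-5p (adjusted p = 0.330, exact test) did not. These intervals and tests compare single libraries and cover the counting error of reads only. PCR reads that carry no molecular identifier cannot be counted as separate molecules, so the error in molecules may be larger. All read counts of miR-125a are even and it has 2 precursor genes. With its reads divided by 2, as would be right if each had been counted at both genes, the interval of its log2 ratio went from -0.43 to 2.18. miR-125a would then have 6 reads in NCC, as miR-125c-5p had, and 175 in non-NCC, below the 185 of miR-125c-5p. The order of these guides below miR-125b-5p thus depends on the counting.

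The 3p rows behaved unlike each other. miR-125b-2-3p, the passenger arm of mir125b-2, had 185 normalized counts in NCC (24 reads) and 13.2 in non-NCC (102 reads). It was 14.0-fold higher in NCC, its log2 ratio was 3.81 (from 3.10 to 4.46), and it passed the test (adjusted p = 1.05e-17, exact binomial test). By the size of its ratio it was number 4 of the 103 rows with at least 10 reads in both libraries. Together with miR-125b-5p, 2 of the 7 rows of the family passed this test, both as higher in NCC, where 14.7% of all tested rows passed as higher in NCC.

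miR-125b-1-3p, the passenger arm of mir125b-1, had 30.9 normalized counts in NCC (4 reads) and 12.2 in non-NCC (94 reads). Its log2 ratio was 1.34, its interval reached from -0.56 to 2.75, and it did not pass the test (adjusted p = 0.202, exact binomial test). Its ratio was thus close to that of its guide, and its interval lay wholly below that of miR-125b-2-3p. miR-125b-3-3p was at 0 in NCC, against 8 reads (1.04 normalized counts) in non-NCC, and miR-125c-3p was at 0 in NCC, against 16 reads (2.07 normalized counts) in non-NCC. At an equal level 0.134 and 0.268 NCC reads would have been expected for them, so the NCC library was too shallow to show whether they differed.

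**Figure D2:**
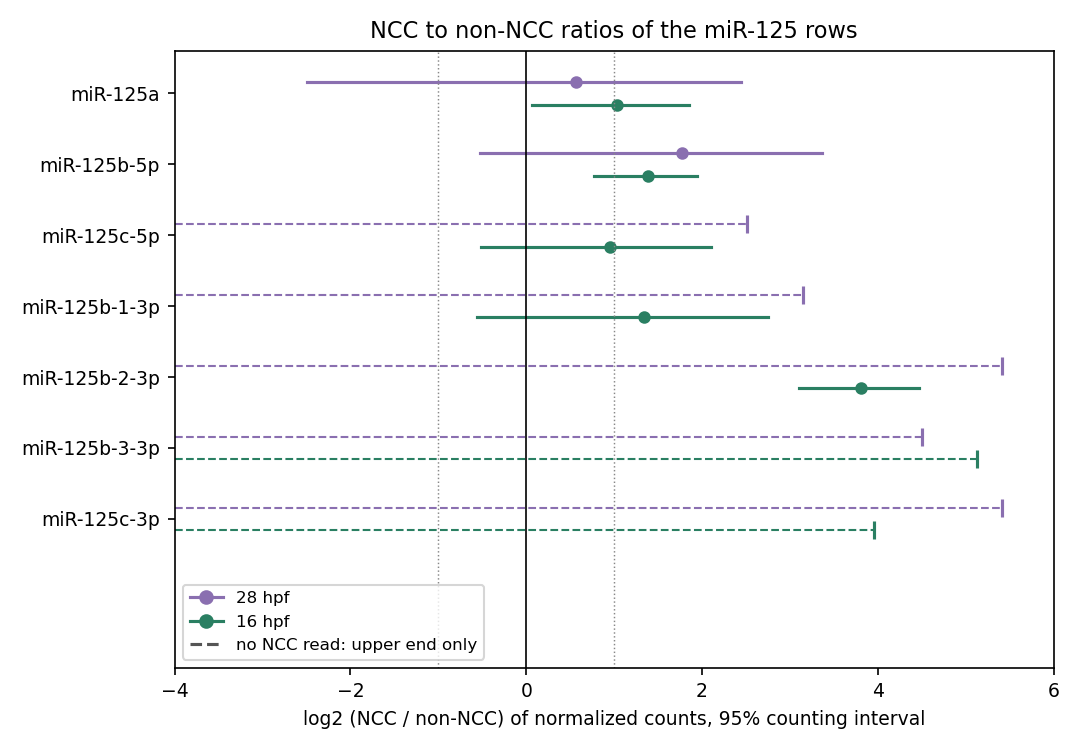
log2 ratio of NCC over non-NCC normalized counts for each miR-125 row at 28 hpf and at 16 hpf, with 95% Clopper-Pearson intervals; dashed lines show only the upper end where NCC had no read, and dotted vertical lines mark 2-fold. At 16 hpf the interval of miR-125b-2-3p, from 3.10 to 4.46, lies apart from those of the 3 guides and of miR-125b-1-3p.

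As a share of its library, given in RPM (reads of the row in 1000000 reads of all miRNA rows of the library), the family was a minor one at 16 hpf. The guide rows together took 19.2 RPM in NCC (95% exact interval from 14.0 to 25.7) and 8.21 in non-NCC (from 7.75 to 8.70). The 3p rows together took 12.0 RPM in NCC (from 7.95 to 17.3) and 1.57 in non-NCC (from 1.37 to 1.79). By reads, miR-125b-5p was number 72 of the 226 rows present in NCC and number 107 of the 339 present in non-NCC. miR-125b-2-3p was number 76 in NCC and number 191 in non-NCC. For the rows without NCC reads, 3 reads in NCC amount to 1.28 RPM, above the 0.0571 of miR-125b-3-3p and the 0.114 of miR-125c-3p in non-NCC. Without the reads of the miR-430 family, the guides took 239.8 RPM in NCC and 99.5 in non-NCC, and the 3p rows took 149 in NCC and 19.0 in non-NCC.

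Summed over rows, the guides were 2.33-fold higher in NCC, from 45 NCC reads and 1151 non-NCC reads (log2 ratio 1.22, from 0.76 to 1.65). The 3p rows were 7.59-fold higher, from 28 NCC reads and 220 non-NCC reads (log2 ratio 2.92, from 2.30 to 3.49). Without miR-125b-2-3p, the 3p rows were 2.02-fold higher, from 4 NCC reads and 118 non-NCC reads (log2 ratio 1.01, from -0.88 to 2.41). The distance between guides and 3p rows at 16 hpf therefore rested on the 24 NCC reads of miR-125b-2-3p.

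Reads of the 3p and 5p rows can be compared within a library, where the scaling between libraries cancels. The row of miR-125b-5p pools 3 genes, so its ratios to single 3p rows are not those of a single hairpin. Between populations or stages, a shift among these genes and a shift between the arms of a hairpin cannot be told apart here. For each 100 reads of the shared guide miR-125b-5p, the NCC library at 16 hpf held 88.9 reads of miR-125b-2-3p and the non-NCC library 16.6. The odds ratio of 3p to 5p reads, NCC over non-NCC, was 5.35 (95% exact conditional interval from 2.83 to 10.1). It passed Fisher's exact test with adjustment over the 115 pairs of arms in the table (adjusted p = 8.99e-07), where 8.7% of the pairs passed with a higher 3p share in NCC. Of the 10 pairs that did, miR-125b-2-3p had the third highest odds ratio, after miR-204-3-3p and miR-16c-3p.

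For miR-125b-1-3p, by contrast, there were 14.8 reads per 100 guide reads in NCC and 15.3 in non-NCC. The odds ratio was 0.97 (from 0.24 to 2.88), which leaves room for a severalfold difference either way (adjusted p = 1, Fisher's exact test). Set directly against each other, miR-125b-2-3p over miR-125b-1-3p was 24 to 4 reads in NCC and 102 to 94 in non-NCC, an odds ratio of 5.49 (from 1.79 to 22.6). Both pairs share the reads of miR-125b-5p and are not independent. miR-125b-3-3p and miR-125c-3p, with no NCC read, gave odds ratios of 0 with upper ends of 14.1 and 10.7.

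**Figure D3:**
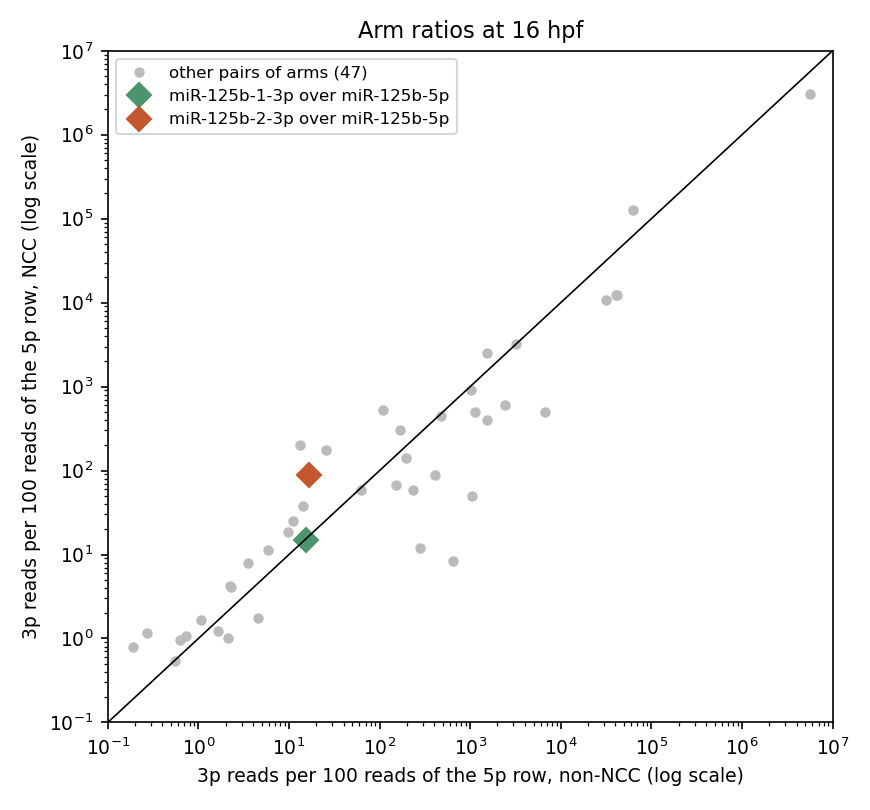
Reads of a 3p row per 100 reads of the 5p row of the same miRNA at 16 hpf, in NCC (vertical) against non-NCC (horizontal), both on log scales, for the pairs with reads of both arms in both libraries; the diagonal marks equal arm ratios. miR-125b-1-3p lies on the diagonal (14.8 in NCC and 15.3 in non-NCC), and miR-125b-2-3p lies above it (88.9 in NCC and 16.6 in non-NCC), within the scatter of the 47 other pairs.

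The division of the reads among the family members showed the same feature from another side. Of the 28 NCC reads on the 3 miR-125b passenger arms at 16 hpf, 85.7% (95% exact interval from 67.3% to 96.0%) were of miR-125b-2-3p, and of the 204 non-NCC reads 50.0% were (from 42.9% to 57.1%). miR-125b-1-3p took 14.3% in NCC (from 4.03% to 32.7%) and 46.1% in non-NCC (from 39.1% to 53.2%). The guides were divided alike in both libraries: miR-125b-5p took 60.0% of the 45 guide reads in NCC (from 44.3% to 74.3%) and 53.5% of the 1151 in non-NCC (from 50.6% to 56.4%). The odds ratio of its share, NCC over non-NCC, was 1.30 (from 0.68 to 2.54), and the intervals for miR-125a and miR-125c-5p also held 1.

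At 28 hpf, the depth of the NCC library limited what could be seen of the family. Reads were found in NCC for 2 of the 7 rows, miR-125b-5p and miR-125a, and in non-NCC for all 7. Over all rows with non-NCC reads at this stage, 20.7% had NCC reads. miR-125b-5p had 34.2 normalized counts in NCC (3 reads) and 9.996 in non-NCC (114 reads), a 3.42-fold higher value in NCC (log2 ratio 1.78, from -0.52 to 3.36). miR-125a had 22.8 normalized counts in NCC (2 reads) and 15.4 in non-NCC (176 reads), and its log2 ratio was 0.56 (from -2.49 to 2.44). Both ratios lay above an equal level and both intervals held it. At an equal level 0.877 NCC reads of miR-125b-5p and 1.35 of miR-125a would have been expected. Any NCC read of miR-125b-5p thus put its ratio above an equal level. By the 2-fold criterion, 1 of these rows counted as higher in NCC, where 24.5% of the 49 rows with reads in both libraries did, and 0 as higher in non-NCC, where 34.7% did. With NCC reads required, neither row could have counted as higher in non-NCC.

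No miR-125 row passed the exact binomial test at 28 hpf, which 7.95% of the 239 tested rows passed. The lowest unadjusted p-value in the family was 0.0610, for miR-125b-5p (adjusted p = 0.479, exact test). The other 5 rows had no NCC read. In non-NCC, miR-125c-5p had 86 reads (7.54 normalized counts), miR-125b-1-3p 56 reads (4.91), miR-125b-3-3p 23 reads (2.02), and miR-125b-2-3p and miR-125c-3p 13 reads each (1.14). At equal levels, between 0.100 and 0.661 NCC reads would have been expected for these rows. Even at the 14.0-fold ratio of 16 hpf, 1.40 NCC reads of miR-125b-2-3p would have been expected, so its absence from NCC at 28 hpf was not a detectable loss. The limit set here for the NCC library, 3 reads, equals 461 RPM, and in non-NCC the highest of these 5 rows, miR-125c-5p, stood at 78.2. The guide rows together took 769 RPM in NCC (from 249.7 to 1794) and 342 in non-NCC (from 308 to 378).

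Arm ratios could not be compared between the populations at 28 hpf, as the 3 guide reads of miR-125b-5p in NCC came with no 3p read. The upper ends of the odds ratios were 5.06 for miR-125b-1-3p, 12.6 for miR-125b-3-3p and 22.8 for miR-125b-2-3p. Over the whole table, 0% of the 71 pairs passed Fisher's exact test at this stage after adjustment, and 2 had an unadjusted p-value under 0.05.

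The ratio of NCC to non-NCC was compared between stages with an exact conditional test on the 4 read counts, because the stages were normalized apart. For miR-125b-5p, the log2 ratio at 28 hpf differed from that at 16 hpf by 0.39 (95% interval from -2.0 to 2.13), and for miR-125a by -0.47 (from -3.68 to 1.73). For miR-125b-2-3p, miR-125b-1-3p and miR-125c-5p only the upper ends of the change could be given, at 1.73, 2.52 and 2.03. None of these 5 rows passed the test (adjusted p = 1 for each), which 14.8% of the 189 rows tested did. The intervals of miR-125b-5p and miR-125a leave room for severalfold changes in either direction.

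Within non-NCC, where both libraries were deep, the make-up of the family differed between the stages. As counted, miR-125a was the leading guide at 28 hpf, with 46.8% of 376 guide reads (from 41.7% to 52.0%). At 16 hpf it had 30.4% of 1151 (from 27.8% to 33.2%). miR-125b-5p took 30.3% at 28 hpf (from 25.7% to 35.2%), against 53.5% at 16 hpf (from 50.6% to 56.4%). miR-125c-5p took 22.9% at 28 hpf (from 18.7% to 27.5%), against 16.1% at 16 hpf (from 14.0% to 18.3%). The corresponding odds ratios, 28 over 16 hpf, were 2.01 (from 1.57 to 2.57) for miR-125a, 0.38 (from 0.29 to 0.49) for the guide of miR-125b and 1.55 (from 1.15 to 2.08) for miR-125c-5p. Each interval excluded 1 by counting error alone, and there was 1 library per stage. With the reads of miR-125a divided by 2, as above, 88 would remain at 28 hpf, below the 114 of miR-125b-5p. Here only the reads of miR-125a were divided. miR-125b-5p has 3 precursor genes, and its 616 reads at 16 hpf are not a multiple of 3. With its reads divided by 3 as well, 38 would remain at 28 hpf, and the 88 of miR-125a would stand beside 86 of miR-125c-5p. The lead of miR-125a thus depends on how the reads of both rows were counted, and the shares were not recomputed with divided reads.

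The division of reads among the passenger arms of miR-125b in non-NCC also differed between the stages. miR-125b-1-3p led at 28 hpf with 60.9% of 92 reads (from 50.1% to 70.9%), against 46.1% of 204 at 16 hpf. miR-125b-3-3p took 25% at 28 hpf (from 16.6% to 35.1%), against 3.92% at 16 hpf (from 1.71% to 7.58%). miR-125b-2-3p took 14.1% at 28 hpf (from 7.74% to 23.0%), against 50.0% at 16 hpf. At 16 hpf the intervals of miR-125b-2-3p and miR-125b-1-3p overlapped. The arm that stood out in NCC at the early stage thus had the fewest reads of the 3 in non-NCC at the later one. It had 13 there against 23 of miR-125b-3-3p, with overlapping intervals. The odds ratio of miR-125b-2-3p to miR-125b-1-3p in non-NCC, 28 over 16 hpf, was 0.22 (from 0.10 to 0.43).

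Against the shared guide, miR-125b-1-3p stood at 49.1 reads per 100 guide reads in non-NCC at 28 hpf and at 15.3 at 16 hpf (odds ratio 3.21, from 2.14 to 4.81, adjusted p = 6.75e-08, Fisher's exact test over 108 pairs). miR-125b-3-3p stood at 20.2 at 28 hpf and 1.30 at 16 hpf (odds ratio 15.4, from 6.47 to 41.0, adjusted p = 2.89e-11, Fisher's exact test). These were 2 of the 4 pairs of the family, where 19.4% of all pairs passed with a higher 3p share at 28 hpf. The 2 pairs share the reads of miR-125b-5p and are not independent, and miR-125b-3-3p had 8 reads in non-NCC at 16 hpf. miR-125b-2-3p (11.4 at 28 hpf and 16.6 at 16 hpf) and miR-125c-3p (15.1 per 100 reads of miR-125c-5p at 28 hpf and 8.65 at 16 hpf) did not pass, with intervals of the odds ratio from 0.34 to 1.29 and from 0.74 to 4.06. As a share of its library, the summed guides stood at 342 RPM in non-NCC at 28 hpf and 8.21 at 16 hpf. Without the miR-430 family they stood at 1026 at 28 hpf and 99.5 at 16 hpf.

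**Figure D4:**
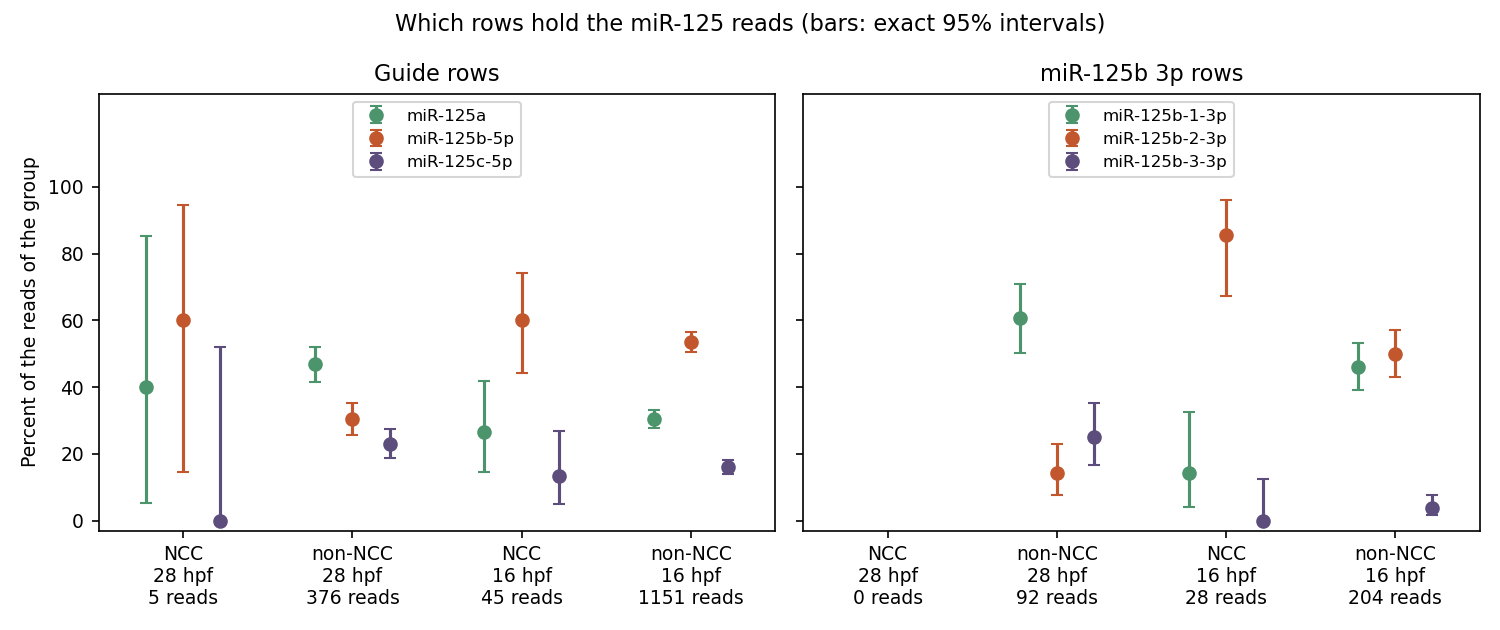
Percent of the reads of the 3 guide rows (left) and of the 3 miR-125b 3p rows (right) that each row took in each library, with exact 95% intervals and the number of reads under each library. miR-125b-2-3p takes 85.7% of the 3p reads in NCC at 16 hpf, and in non-NCC 14.1% at 28 hpf and 50.0% at 16 hpf.

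The miRNAs encoded beside the miR-125 genes were read from a list of all 16 rows of let-7, miR-99 and miR-100. let-7 acts as a timer of differentiation in animals, and miR-99 and miR-100 form a family with a shared seed. At 16 hpf, 12 of the 16 rows had reads in both libraries, and by the 2-fold criterion 7 of the 12 were higher in NCC and 0 in non-NCC, beside 26.7% and 25.3% over all rows with reads in both. Among those higher in NCC, let-7b (5 NCC reads and 1 non-NCC read), let-7e (5 and 54) and let-7h (2 and 51) had few non-NCC reads. An equal level was 59.6 non-NCC reads per NCC read, so any NCC read put these rows above it. Their direction therefore followed from the requirement of NCC reads. The median log2 ratio of the 12 rows was 1.28, beside the 0 that the normalization sets over all such rows. In the exact binomial test 6 of the 16 passed as higher in NCC, beside 14.7% of all tested rows. The 1 that passed as lower was miR-100-5p, and the share of all rows that did so was not computed. At 28 hpf, 1 of the 12 with non-NCC reads, miR-100-5p, had NCC reads, beside 20.7% over all rows.

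Among list members with at least 10 reads in both libraries at 16 hpf, let-7a, whose genes include the neighbors of mir125b-1 and mir125b-2, had 1598 normalized counts in NCC (207 reads) and 630.4 in non-NCC (4867 reads), and its log2 ratio was 1.34 (from 1.13 to 1.54). let-7c-5p, from the clusters of mir125b-3 and mir125c, had 77.2 normalized counts in NCC (10 reads) and 30.6 in non-NCC (236 reads), also a log2 ratio of 1.34 (from 0.26 to 2.24). Both values lay inside the interval of miR-125b-5p. miR-99, the other neighbor of mir125b-3 and mir125c, had 30.9 normalized counts in NCC (4 reads) and 60.6 in non-NCC (468 reads), and its log2 ratio was -0.97 (from -2.86 to 0.39, adjusted p = 0.449, exact binomial test). let-7d-5p, from the genes beside mir125a-1 and mir125a-2, was at 0 in NCC, against 16 reads in non-NCC. The upper end of its log2 ratio was 3.95, so the NCC library was too shallow to show whether it differed. let-7f and let-7i, whose genes are not among these neighbors, had log2 ratios of 5.03 (from 4.51 to 5.54) and 2.30 (from 1.60 to 2.92), and let-7g had one of -0.37 (from -1.05 to 0.24).

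miR-100-5p, whose genes lie in the clusters of mir125b-1 and mir125b-2, had 2409 normalized counts in NCC (312 reads) and 2809 in non-NCC (21688 reads) at 16 hpf. Its log2 ratio of -0.22 (from -0.39 to -0.06) lay below the intervals of miR-125b-5p and miR-125b-2-3p. At 28 hpf it had 137 normalized counts in NCC (12 reads) and 36.0 in non-NCC (410 reads), and its log2 ratio was 1.93 (from 0.96 to 2.75). Its reads are all even and it has 2 precursor genes. With the reads at 28 hpf divided by 2, the interval went from 0.47 to 3.08. The interval at 16 hpf was not recomputed with divided reads. miR-100-2-3p, the passenger arm of the gene beside mir125b-2, had 3 NCC reads and 136 non-NCC reads at 16 hpf (log2 ratio 0.39, from -1.90 to 1.97). The odds ratio of miR-125b-2-3p to miR-100-2-3p, NCC over non-NCC, was 10.6 (from 3.09 to 56.4), so the high ratio of miR-125b-2-3p was not shared by the passenger arm of its neighbor.

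**Figure D5:**
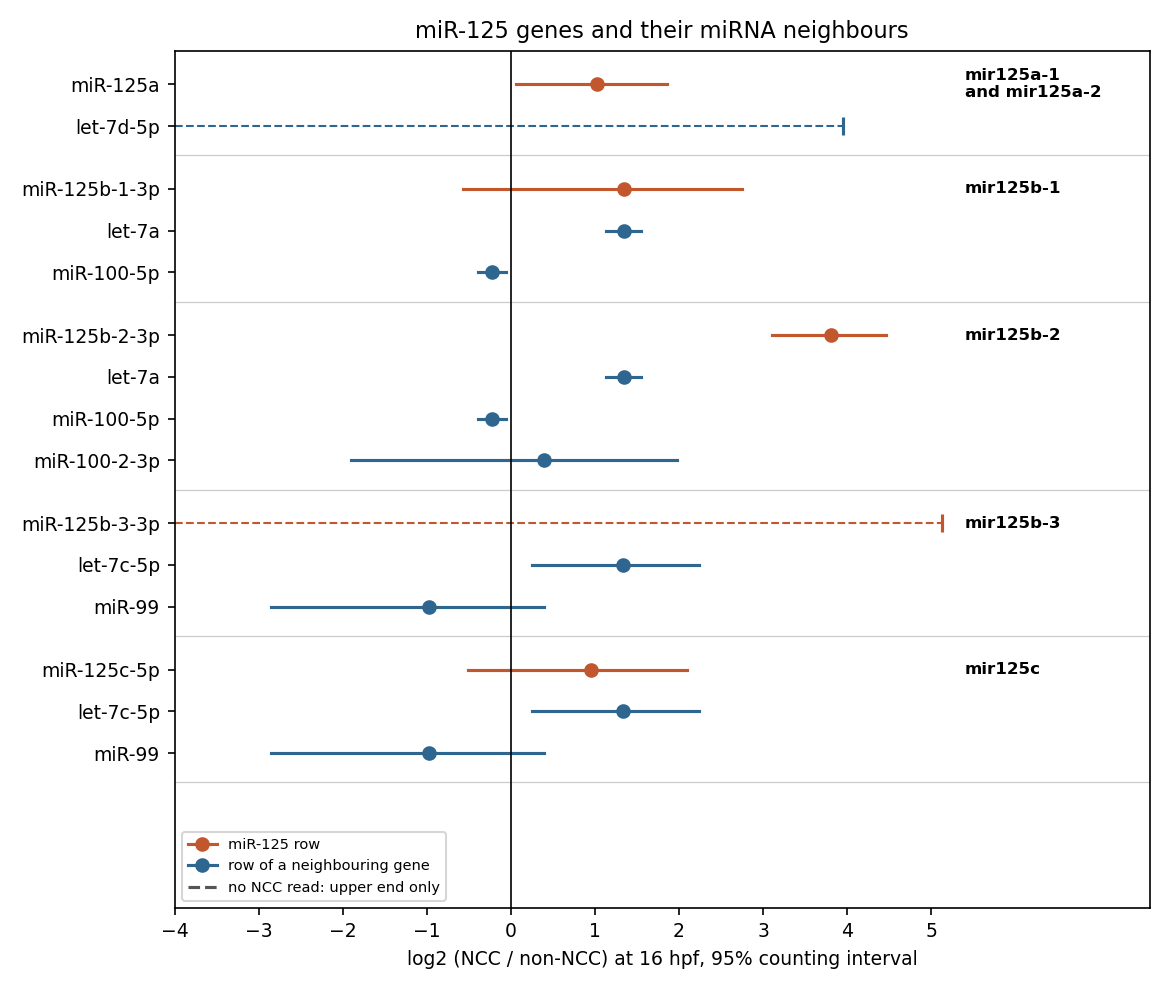
log2 ratio of NCC over non-NCC at 16 hpf with 95% Clopper-Pearson intervals for the miR-125 row of each precursor gene and the rows of the miRNA genes beside it; rows with several genes are repeated under each. miR-125b-2-3p (3.81) stands above let-7a (1.34), miR-100-5p (-0.22) and miR-100-2-3p (0.39), drawn with it under mir125b-2.

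The rows most like miR-125b-5p in their pair of log2 ratios at 28 and 16 hpf were sought among the 48 other rows with reads in all 4 libraries, by Euclidean distance. They were miR-16b (2.19 at 28 hpf and 1.27 at 16 hpf, distance 0.43), miR-462 (2.60 at 28 hpf and 1.01 at 16 hpf, distance 0.90) and miR-735-5p (0.76 at 28 hpf and 1.35 at 16 hpf, distance 1.02). miR-125a was number 5 by this measure. With 2 to 4 NCC reads of each of the 3 rows at 28 hpf, the order among them lay within counting error. An equal level at 28 hpf was 130 non-NCC reads per NCC read. There miR-462 had 43 non-NCC reads, miR-16b had 57 and miR-125b-5p had 114. Any NCC read thus put the ratio of each above an equal level. Their shared direction at 28 hpf therefore followed from the requirement of reads in all 4 libraries. For miR-735-5p, with 308 non-NCC reads, the direction was not set in this way.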

How the data were processed

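The small RNA libraries of sorted NCC and non-NCC at 16 and 28 hpf are 1 per group. Per the paper and the submitters' processing notes, the authors aligned reads with Bowtie (GRCz11), counted them with HTSeq and normalized the counts; they used DESeq2. The treatment of reads matching several genes is not given in the sources used here. Some rows hold equal counts, such as miR-23b and miR-23b-3p (1 NCC and 336 non-NCC reads each at 16 hpf). Whether reads were counted in more than 1 row was not tested. Library totals are sums over the miRNA rows. The authors deposited normalized counts, a signal equal to read counts divided by a size factor, 1 table per stage. All values (100%) were whole multiples of the value of 1 read, within 4.02e-07 reads, so the tests used recovered reads. Ratios used Clopper-Pearson intervals (95%) and exact binomial tests. Arm ratios and stage changes used exact conditional intervals and tests. p-values were adjusted by Benjamini-Hochberg over the whole table at a threshold of 0.05. The study names a 2-fold criterion in its text and a log2 ratio over 2 in its captions; the first was used, with reads in both libraries required here. The code was tested on simulated data. Alternatives were library totals with and without miR-430, edgeR's TMM factors, reads divided by precursor genes, 0.5 added reads, the paper's pseudocount, 10-read minimums and 4-fold. The arm comparison between stages, the direct comparisons of single arms and the halved reads were chosen after the values were seen. The members and lists were chosen with earlier results of these data known. Named were the 7 rows, members of the let-7, miR-99 and miR-100 list with at least 10 reads in both libraries (miR-100-2-3p, miR-99 and let-7d-5p were added for their place), and the 3 rows nearest to miR-125b-5p. Tools were Python 3.11.15 (numpy 2.4.6, pandas 2.3.3, scipy 1.17.1, statsmodels 0.14.6, matplotlib 3.10.9) and R 4.3.3 (edgeR 4.0.16). Mature sequences were not analysed here.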

Additional observations from a re-analysis of the deposited data

Results flagged for a closer look

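The ratio of 3p to 5p reads differed between the populations at 16 hpf for miR-125b-2-3p, with an odds ratio of 5.35 for NCC over non-NCC, and this rested on 24 NCC reads in 1 library.

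In non-NCC, the ratio of 3p to 5p reads differed between the stages for miR-125b-1-3p (odds ratio 3.21, 28 over 16 hpf) and miR-125b-3-3p (odds ratio 15.4). Both share the reads of miR-125b-5p and are not independent, and miR-125b-3-3p had 8 reads in non-NCC at 16 hpf.

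Among the miRNAs of the neighboring genes, the NCC to non-NCC ratio of miR-100-5p differed between the stages by 2.15 on the log2 scale, 28 over 16 hpf (from 1.17 to 2.99, exact conditional test, adjusted p = 0.000349), with 12 NCC reads at 28 hpf and 312 at 16 hpf. Its reads are all even and it has 2 precursor genes, and this test was not redone with the reads divided by 2.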

How the results depend on the processing

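The 42 alternative values of the log2 ratios (5 rows at 16 hpf and 2 at 28 hpf) kept their direction, and where tested their side of an adjusted p of 0.05, as did the 6 of the arm ratios at 16 hpf. Some crossed 2-fold: miR-125a at 16 hpf was 0.80 with TMM factors, miR-125c-5p there 1.06 with 0.5 reads added and just past 1 without the miR-430 family in the totals, which also put miR-125a at 28 hpf at 1.24. The TMM factors of edgeR lowered all log2 ratios by 0.23 at 16 hpf and raised them by 0.41 at 28 hpf, library totals raised them by 0.38 at 28 hpf, and totals without the miR-430 family by 0.67. The number of miR-125 rows over 2-fold in NCC at 16 hpf, 4, was 1 at 4-fold, 2 with the exact binomial test required, 3 with TMM factors or at least 10 reads in both libraries, 5 with totals without the miR-430 family and 6 with 0.5 reads added. At 28 hpf it was 1, and 2 with totals without the miR-430 family, 4 with 0.5 reads added, and 0 at 4-fold, with at least 10 reads in both libraries, or with the exact binomial test required. With 0.5 reads added, rows without NCC reads were counted too. These were miR-125b-3-3p at 16 hpf, and miR-125b-2-3p, miR-125b-3-3p and miR-125c-3p at 28 hpf. With the plotting pseudocount of the paper, 2 rows at 16 hpf and 5 at 28 hpf were over 2-fold in non-NCC in place of 0, all of them without NCC reads. The stage change of miR-125a turned from -0.47 to 0.16 with totals without the miR-430 family and to 0.17 with TMM factors. No paired analysis was possible because each group has 1 library, which also left no replicate to leave out. Counting limits every value from NCC, above all at 28 hpf.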
